A study of Homo sapiens with 5 samples.

Results

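Heat shock proteins and their DNAJ co-chaperones were examined as 75 protein-coding genes among the 33857 genes of the expression table. The members were chosen by name. They are the genes whose symbols begin with HSPA, HSPB, HSPD, HSPE, HSPH, HSP90 or DNAJ, together with the regulators HSF1, HSF2 and BAG3, while HSPG2, HSPBAP1 and HSPBP1 share the letters but not the families and were left out. HSPA14 is listed under 2 gene identifiers, and both are members.

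Poly(A+) RNA was sequenced from H9, an established human embryonic stem cell line grown in mTeSR medium, in 2 mock control and 3 CFIm25-m samples. The study selected its transfected cultures on puromycin before clones were picked, and no other treatment is named for these libraries. Mock control cells had been transfected with the empty CRISPR/Cas9 vector and carry the label control KO. The CFIm25-m samples, labelled CFIm25 KO, are clones edited near the start codon of NUDT21, the gene for CFIm25, a subunit of the cleavage factor that binds pre-mRNA during 3′ end processing. Each clone came from its own guide RNA. The clones kept alleles for a protein that lacks some N-terminal residues, so the label KO stands here for reduced and mutant CFIm25 rather than for its absence. The study describes its mock controls as 2 clones, while the sample titles give replicate numbers and name no clone. The samples were taken as separate clones, in which case the p-values measure the spread between clones. Guide, clone and replicate cannot be told apart among the CFIm25-m samples.

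HSP70 proteins bind and release unfolded stretches of other proteins in a cycle driven by ATP. DNAJ proteins bring them clients and speed ATP hydrolysis, HSP110 proteins exchange the nucleotide, HSP90 proteins finish the folding of kinases and receptors, and small heat shock proteins hold unfolded clients until they can be refolded. After heat or other stress, the transcription factor HSF1 binds heat shock elements in promoters and raises many of these genes, and in unstressed cells constitutive members such as HSPA8 and HSP90AB1 carry out most folding.

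The libraries held between 18754108 and 23372391 reads assigned to genes, and 3 reads corresponded to between 2.70 and 3.46 normalized counts, the floor below which a gene at 0 cannot be measured (counting error only). A normalized count is a read count divided by a size factor of the sample. NUDT21, the edited gene, had normalized counts of 6503 and 6398 (mock control) against 4035, 3281 and 3400.2 (CFIm25-m) and fell by 0.86 on the log2 scale (SE 0.11, limma-trend with Benjamini-Hochberg adjustment, adjusted p = 0.00431). The 6 markers of embryonic stem cells (POU5F1, SOX2, NANOG, LIN28A, DNMT3B and TDGF1) were all present, the lowest being NANOG with 852 in CFIm25-m 1, and none passed the test. Their sum was lower in every clone, at 138748 to 151308 against 163913 and 167303 in mock control. In all clones LIN28A, DNMT3B and NANOG were lower, with log2 fold changes of -0.41, -0.33 and -0.31, and POU5F1 and TDGF1 were higher, with 0.21 and 0.14. The summed markers of ectoderm, mesoderm and endoderm stayed at or below 25.1, 105 and 49.1 normalized counts in every sample. Of the fibroblast-like markers, LUM and DCN were at or below 2.31, while COL1A1 and COL1A2 were between 1107 and 8705, with log2 fold changes of -0.42 and 0.34 (limma-trend, adjusted p = 0.0828 and 0.113). The part of the cells' marker levels in the values of the chaperones was not tested.

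The comparison of CFIm25-m with mock control asked which genes depend on CFIm25 in embryonic stem cells. Among the chaperones, HSPA12B, an atypical HSP70, rose, and no member passed the test in the lower direction. Of the 75 members, 68 reached a normalized count of 10 in at least 2 samples and were tested in a fit over 19232 genes, on log2(normalized count + 1), with limma-trend and adjustment over all tested genes. At adjusted p below 0.05, 1 member was higher and 0 were lower, against 0.941% higher and 0.936% lower of all tested genes (1.88% in either direction). Without CFIm25-m 3, 4 of 66 tested members passed as lower (DNAJB6, HSPA8, HSPA5 and HSP90AB1) and 2 as higher (HSPA12B and HSPA2), where 2.79% of all genes tested passed as lower and 2.76% as higher. Leaving out mock control 1, mock control 2, CFIm25-m 1 or CFIm25-m 2 left 0 members in each direction, where 0.185%, 0.174%, 0.476% and 0.616% of all genes tested passed as lower and 0.164%, 0.2%, 0.281% and 0.442% as higher, in that order. At an unadjusted p below 0.05 there were 11 members, 16.2% of those tested, against 15.1% of all tested genes. edgeR called 0 lower and 1 higher, where it called 1.81% of all tested genes in either direction, and DESeq2 called 1 lower and 1 higher, where it called 3.62%.

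The differences were small in most members. The log2 fold change of 41 tested members lay within 0.2 of 0, and DNAJA4 alone exceeded 1 in either direction, at -1.15, though its value was -0.21 with edgeR and -0.22 with DESeq2. The median over the 68 tested members was -0.06, beside -0.01 over all tested genes and -0.03 over tested protein-coding genes. The median of the members was -0.11 without mock control 2, -0.10 without CFIm25-m 2 and -0.03 without CFIm25-m 3, while that of all tested genes stayed between -0.02 and -0.01 whichever sample was left out. In the fit of all samples the log2 fold change was negative in 46 members, or 67.6%, beside 51.8% of all tested genes. In 23 members (33.8%) all CFIm25-m samples lay below both mock controls, beside 19.8% of all tested genes, and in 5 members (7.35%) all lay above, beside 17%. Both directions together made 28 members (41.2%), beside 36.8% of all tested genes. Among tested protein-coding genes, the class of all members, 56.1% were negative, 23% lay below in this way, 15.6% above and 38.6% in either direction. With 2 samples against 3, a permutation of the samples has 10 arrangements and cannot give a p below 0.1. When samples were instead scaled by their total reads, which moved the median of all genes to 0.06 and that of the members to 0.00, the corresponding members were 14 lower and 10 higher of 69 tested, beside 12.7% lower and 23.2% higher of all genes tested. In these bulk libraries, fewer cells of a type and less RNA per cell cannot be told apart.

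**Figure D1:**
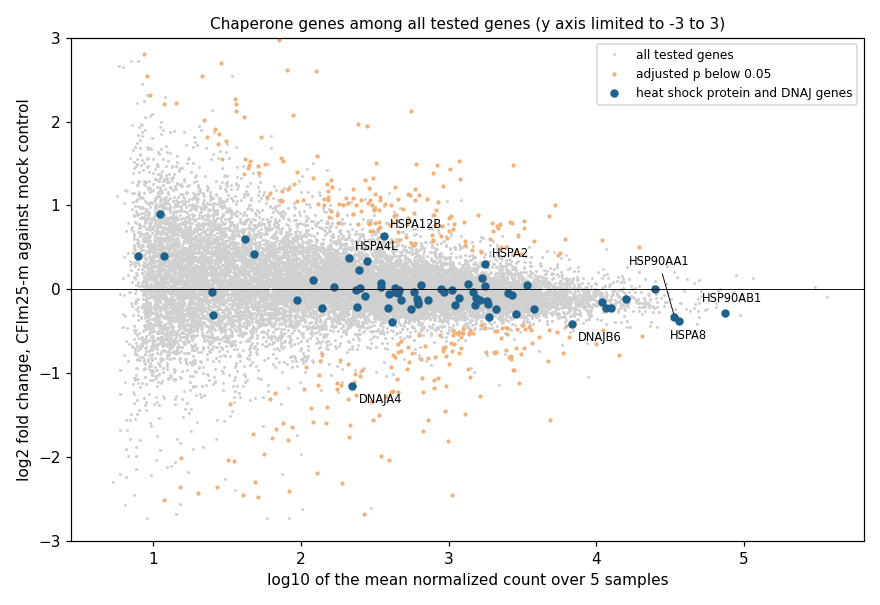
Log2 fold change of CFIm25-m against mock control (y axis) against the log10 of the mean normalized count over the 5 samples (x axis), for all 19232 tested genes (grey), those with adjusted p below 0.05 (orange) and the 68 tested chaperone genes (blue). HSPA12B lies among the orange points above 0, and the most abundant members, HSP90AB1, HSPA8 and HSP90AA1, lie below 0 with values between -0.28 and -0.37. 33 tested genes lie outside the plotted range of the y axis.

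Levels between genes were compared as normalized counts per kb of the deposited gene length. They spanned from 0.23 for DNAJB8 to 24998 for HSP90AB1, the constitutive cytosolic HSP90, as means over the 5 samples. 10 members were above 1000 per kb, namely HSP90AB1, HSPA8, HSP90AA1, HSPD1, HSP90B1, HSPA5, HSPA4, HSPA9, DNAJA1 and HSPB1. They belong to the cytosol, the mitochondria and the endoplasmic reticulum. The 7 members that were not tested were HSPA6, HSPB2, DNAJB7, DNAJB8, DNAJB13, DNAJC22 and the readthrough gene HSPE1-MOB4, none above 10.6 normalized counts in any sample. HSPA6, a strictly stress-induced HSP70, had at most 1 read in each library, where a count of 0 allows up to 3 reads.

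**Figure D2:**
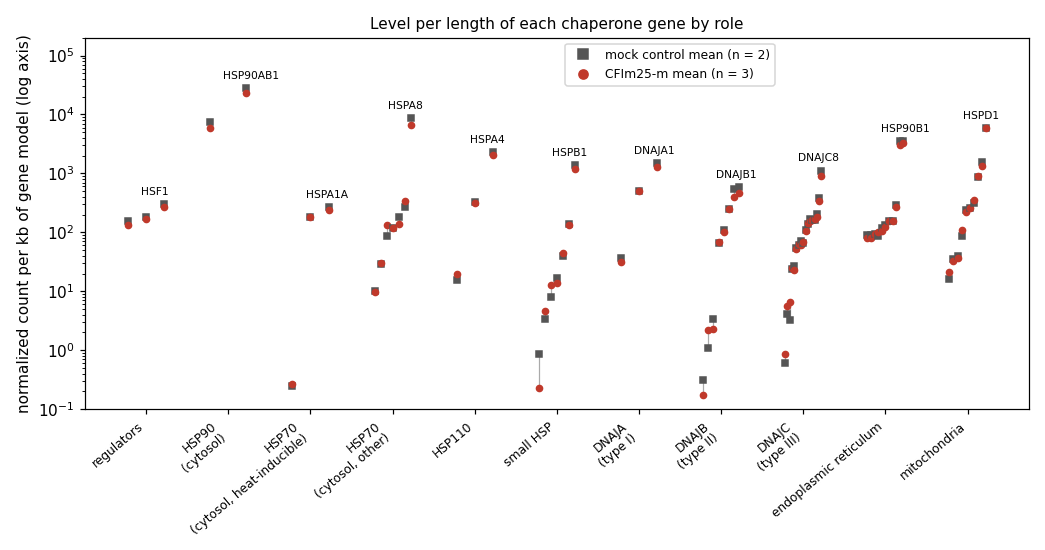
Normalized count per kb of gene length (y axis, log scale) of 74 chaperone genes grouped by role (x axis), as the mean of the 2 mock control samples (grey squares) and of the 3 CFIm25-m samples (red circles), joined by a line. HSP90AB1, at 27947 (mock control) and 23032 (CFIm25-m), is the highest, and HSPA6 is near the bottom. HSPE1-MOB4 is not drawn.

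The members together took a smaller share of the reads in every CFIm25-m sample than in either mock control. The share was 1.421% and 1.398% of all assigned reads in mock control and 1.319%, 1.279% and 1.221% in CFIm25-m, with 95% Wilson intervals no wider than 0.0107 percentage points, which cover counting error only. Their summed normalized counts were 307098 and 303015 in mock control and 274138, 269045 and 245320.0 in CFIm25-m, a difference of -13.84% between the means. Most of that sum came from a few genes. HSP90AB1, HSPA8 and HSP90AA1 held 51.7% of it and were together lower by 19.3%, from 164580.0 and 162480.0 to 139474, 137312 and 119117. The 67 members with means under 10000 held 21.2% of it, and the difference of their sums was -7.63%. These are descriptions of sums, and the differences of the single genes behind them did not pass the test.

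Other abundant genes also had mostly negative values. Of all tested genes, 257 had a mean of at least 10000 normalized counts, and their median log2 fold change was -0.13, with 43.2% of them lower in all CFIm25-m samples than in both mock controls. The 8 members at that level had a median of -0.22, and 7 of them were lower in all CFIm25-m samples. CFIm25-m 3 was the lowest of the 5 samples in 69.6% of the 257 genes and in 6 of the 8 members. Over all levels it was the lowest in 34 of the 68 tested members (50%), beside 32.5% of all tested genes and 37.9% of tested protein-coding genes. The median difference of the members from the mock control mean was 0.00 in CFIm25-m 1, -0.06 in CFIm25-m 2 and -0.15 in CFIm25-m 3. The values of the 257 genes, and of the 8 members as a set, were computed only with CFIm25-m 3 included. The part of this sample in the lower values of abundant genes was not tested beyond leaving it out for single named members.

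**Figure D3:**
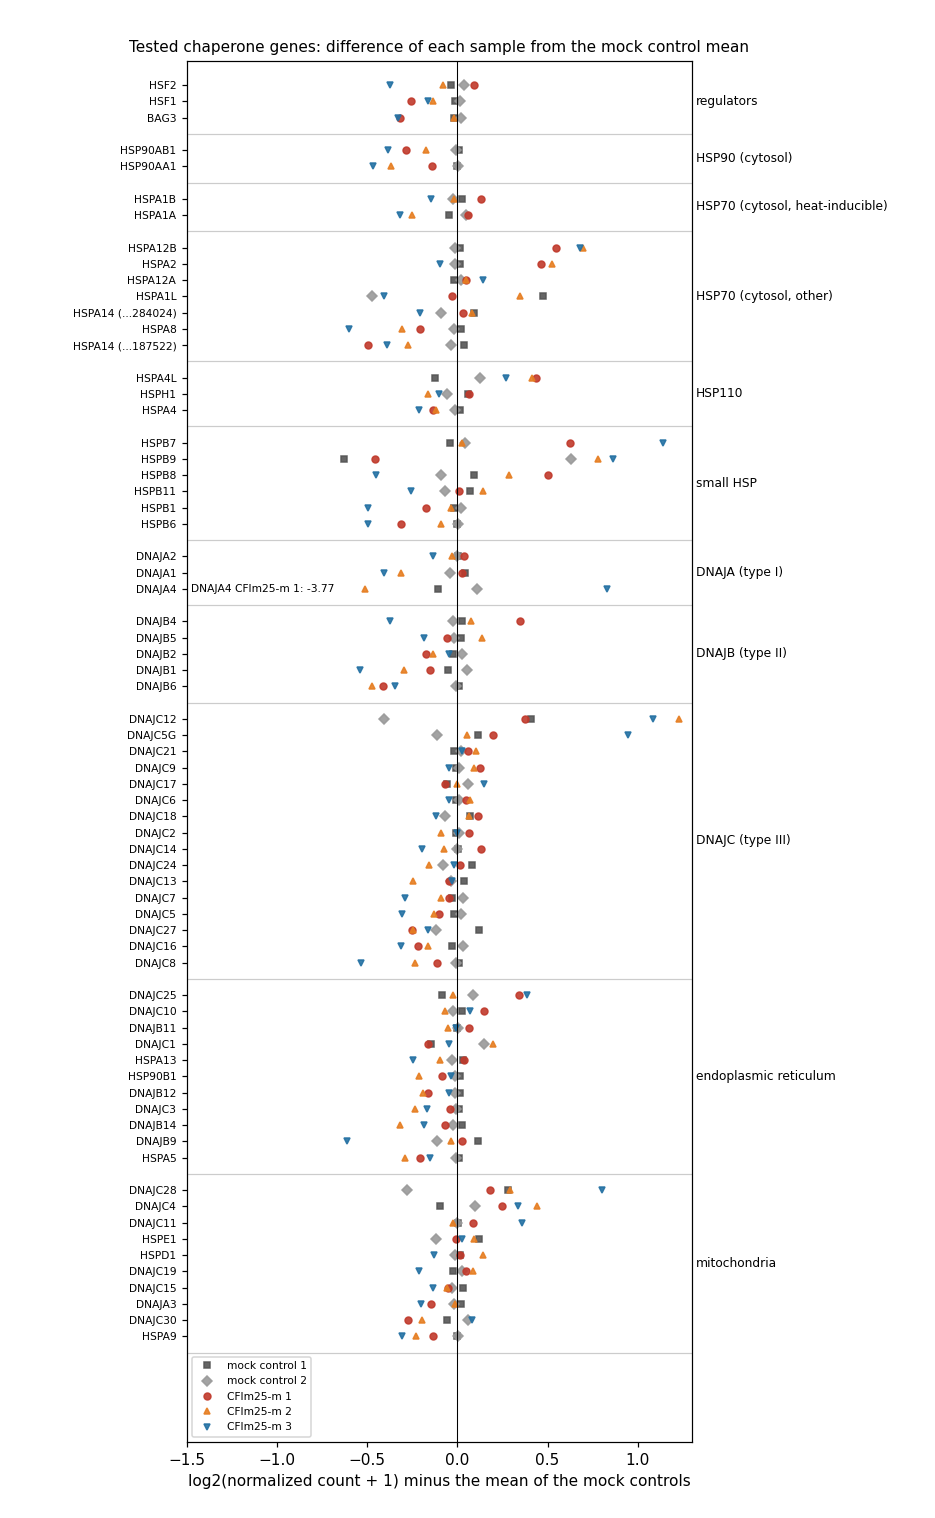
Difference of each sample from the mean of the mock controls on log2(normalized count + 1) (x axis) for the 68 tested chaperone genes (y axis, grouped by role and ordered by fold change), with mock control 1 and 2 in grey and CFIm25-m 1, 2 and 3 in red, orange and blue. The blue points lie farthest left in many rows, as for HSPA8, DNAJB1 and DNAJC8. DNAJA4 in CFIm25-m 1, at -3.77, is off the axis and printed as text.

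The regulators did not pass the test. HSF1, the main activator of the heat shock genes, had normalized counts of 1603 and 1632 (mock control) against 1355, 1474 and 1445 (CFIm25-m), lower in each CFIm25-m sample, with a log2 fold change of -0.18 (SE 0.09, adjusted p = 0.38) by limma-trend. HSF2, a related factor that can bind the same elements, had normalized counts of 483 and 509 (mock control) against 528, 468 and 382 (CFIm25-m), and its groups overlapped (log2 fold change -0.12, SE 0.15, adjusted p = 0.728). BAG3, an HSF1 target that links HSP70 to small heat shock proteins and autophagy, had normalized counts of 419.5 and 431 (mock control) against 341, 420.4 and 338 (CFIm25-m). In BAG3, CFIm25-m 2 lay between the mock controls and the other clones below both (log2 fold change -0.22, SE 0.14, adjusted p = 0.474). The 95% interval of the HSF1 difference, -0.39 to 0.02 on the log2 scale, spans 0.

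Heat shock elements, the sites of HSF1, are arrays of inverted GAA units. The letters GAANNTTCNNGAA or TTCNNGAANNTTC, 3 units in a row on either strand, were searched from 250 bases before to 50 bases after the RefSeq gene start (GRCh38.p14). They occurred in 172 of 35116 windows (0.49%) and in 7 of the 66 member entries with a window (10.6%). The first share counts single windows of all genes, and the second counts entries with a match in any window, so they are not counted alike. They are shown because HSF1 acts on its targets through such elements. Capitals mark the matching letters, written 5′ to 3′ on the strand of the gene.
HSP90AB1 (chr6:44247770-44247798, plus strand): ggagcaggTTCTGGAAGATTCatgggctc
HSP90AB1 (chr6:44247823-44247851, plus strand): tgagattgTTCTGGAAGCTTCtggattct
HSP90AA1 (chr14:102087112-102087140, minus strand): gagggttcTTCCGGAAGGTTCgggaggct
HSPA8 (chr11:123062346-123062374, minus strand): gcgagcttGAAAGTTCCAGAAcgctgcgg
HSPA8 (chr11:123062171-123062199, minus strand): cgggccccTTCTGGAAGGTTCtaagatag
DNAJB6 (chr7:157336865-157336893, plus strand): agagccgaGAACCTTCGCGAAggtggggc
DNAJA1 (chr9:33025268-33025296, plus strand): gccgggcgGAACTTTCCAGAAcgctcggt
HSPD1 (chr2:197500060-197500088, minus strand): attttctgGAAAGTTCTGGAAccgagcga
HSPA6 (chr1:161524458-161524486, plus strand): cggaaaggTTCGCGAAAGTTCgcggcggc
HSP90AB1 and HSPA8 held 2 matches each. The match of HSPD1 overlapped another that began a few bases upstream, and that of DNAJA1 lay just after the gene start. Of the 6 tested members with a match, 4 (HSP90AB1, HSP90AA1, HSPA8 and DNAJB6) were lower in all CFIm25-m samples. So were 17 of the 55 tested members with a window but no match. The share was 19.8% of all tested genes and 23% of tested protein-coding genes. However, 4 of the 6, and 3 of those 4 lower genes, had means of at least 10000 normalized counts, a level at which 43.2% of all tested genes were lower in this way. Over all 66 tested genes with a match the median log2 fold change was -0.07. Shorter arrays of 2 units (GAANNTTC or TTCNNGAA), which every longer array contains, were present in 13.5% of windows and in 31.8% of the member entries, counted likewise. Of the 19 tested members with a shorter array, 9 were lower in all CFIm25-m samples, beside 12 of the 42 without one. Of the 19, 5 had means of at least 10000, and 4 of these 5 were lower. A match is a run of letters and not a measured binding site, and a missing match does not set a gene outside the targets of HSF1. The HSF1 target DNAJB1 matched only the shorter array, and BAG3 matched neither. HSF1 and HSPA12B were among the 8 member symbols without a window.

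Both cytosolic HSP90 genes were lower in every CFIm25-m sample than in either mock control, and neither difference passed the test. HSP90AB1 (chr6:44246166-44253888, plus strand, hg38) had normalized counts of 83827 and 82735 (mock control) against 68379.6, 73702 and 63825 (CFIm25-m), a log2 fold change of -0.28 (SE 0.14, adjusted p = 0.376) by limma-trend. HSP90AA1 (chr14:102080738-102139699, minus strand), the stress-inducible form, had normalized counts of 38321 and 38553 (mock control) against 34854, 29814 and 27756 (CFIm25-m), with a log2 fold change of -0.33 (SE 0.13, adjusted p = 0.275). In HSP90AA1 the clones spread more widely than the mock controls, with an SD of 3652 against 164. The ratio of HSP90AA1 to HSP90AB1 normalized counts was 0.457 and 0.466 in mock control and 0.510, 0.405 and 0.435 in CFIm25-m, so the groups overlapped in the balance of both forms. Without CFIm25-m 3, HSP90AB1 passed the test at -0.23 (limma-trend, adjusted p = 0.0291). It passed in 2 of 15 alternatives, with log2 fold changes over them between -0.33 and -0.21. The alternatives include a block on the replicate number, which also leaves CFIm25-m 3 out of the comparison and assumes a pairing that is not stated.

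Among cytosolic HSP70 genes, HSPA12B rose and the other 6 tested members outside the heat-inducible pair did not pass the test. HSPA12B (chr20:3732667-3753111, plus strand) encodes a distant HSP70 relative best known from endothelial cells. It had normalized counts of 274 and 269 (mock control) against 397, 441 and 437 (CFIm25-m). Every CFIm25-m sample was above both mock controls, and the clones differed by a factor of no more than 1.11. The means were 272 ± 3.58 (SD, n = 2) for mock control against 425 ± 24.4 (SD, n = 3) for CFIm25-m, a log2 fold change of 0.64 (SE 0.12, 95% interval 0.37 to 0.91, limma-trend, adjusted p = 0.0312). The call was lost when any sample other than CFIm25-m 3 was left out, with log2 values between 0.61 and 0.69 and adjusted p up to 0.354, and in limma without a trend. The adjusted p was below 0.05 in 10 of 15 alternatives, among them the block on the replicate number. HSPA12A, the closest relative of HSPA12B, had normalized counts of 333 and 342 (mock control) against 349, 348 and 372 (CFIm25-m), with a log2 fold change of 0.08 (SE 0.12, adjusted p = 0.795). The ratio of HSPA12A to HSPA12B normalized counts was 1.21 and 1.27 in mock control and 0.879, 0.790 and 0.852 in CFIm25-m.

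**Figure D4:**
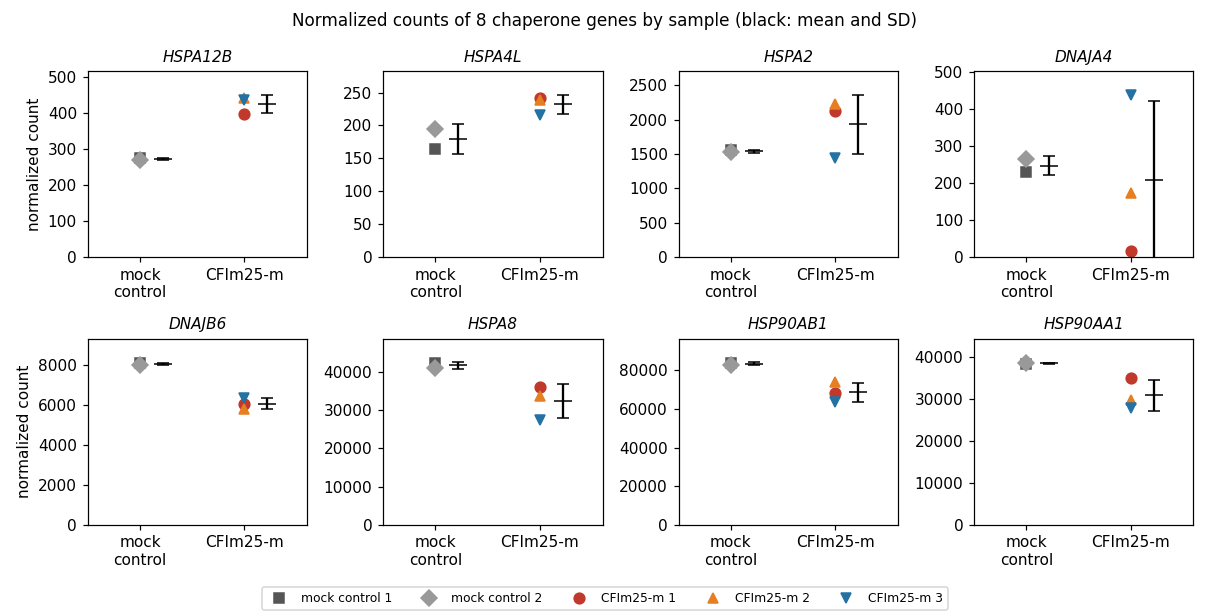
Normalized counts (y axis, starting at 0) of 8 chaperone genes in the 2 mock control samples and the 3 CFIm25-m clones (x axis), with the mean and SD of each group in black beside the points. HSPA12B and HSPA4L lie higher in all clones, DNAJB6, HSPA8, HSP90AB1 and HSP90AA1 lower in all clones, and in DNAJA4 the clones spread from 17.0 to 437 on either side of the mock controls.

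HSPA8 (chr11:123057489-123063230, minus strand), the constitutive HSP70 that folds new proteins and uncoats clathrin vesicles, followed HSP90AB1 in abundance, with normalized counts per kb of 8623 (mock control) and 6707 (CFIm25-m). It had normalized counts of 42432 and 41192 (mock control) against 36240.4, 33796 and 27536 (CFIm25-m). All clones were below the mock controls, with CFIm25-m 3 the lowest, and the log2 fold change was -0.37 (SE 0.14, adjusted p = 0.249) by limma-trend. Without CFIm25-m 3 the difference was -0.26 and passed (limma-trend, adjusted p = 0.0193). HSPA8 passed in 2 of 15 alternatives, with log2 fold changes over them between -0.45 and -0.26.

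HSPA2, an HSP70 known for its need in sperm development, had normalized counts of 1557 and 1527 (mock control) against 2129.8, 2221 and 1439 (CFIm25-m). CFIm25-m 1 and 2 were above both mock controls and CFIm25-m 3 below both, and the log2 fold change of 0.30 (SE 0.17, adjusted p = 0.433) did not pass. Without CFIm25-m 3 it was 0.50 and passed (limma-trend, adjusted p = 0.00262). HSPA2 passed in 2 of 15 alternatives, with log2 fold changes over them between 0.18 and 0.50. HSPA14, a ribosome-associated HSP70 that works with DNAJC2, is listed as 2 overlapping genes on the same strand of chromosome 10. The longer, ENSG00000187522 (chr10:14838164-14871741, plus strand), had normalized counts of 491 and 467 (mock control) against 339, 396 and 366 (CFIm25-m), lower in each clone (log2 fold change -0.39, SE 0.12, adjusted p = 0.171), and the shorter, ENSG00000284024, had normalized counts of 632 and 556 (mock control) against 605, 627 and 513 (CFIm25-m), with overlapping groups (log2 fold change -0.03, SE 0.13, adjusted p = 0.93). Their spans share 8855 bases, so how reads were split between them is uncertain. DNAJC2, named after its values were seen as the partner of HSPA14, had normalized counts of 1053 and 1065 (mock control) against 1105, 993 and 1057 (CFIm25-m), with a log2 fold change of -0.01 (SE 0.10, adjusted p = 0.969).

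The heat-inducible pair HSPA1A and HSPA1B encodes near-identical HSP70 proteins, and reads between them may have been split or dropped in counting. HSPA1A had normalized counts of 639 and 684 (mock control) against 688, 555 and 530.0 (CFIm25-m) (log2 fold change -0.17, SE 0.13, adjusted p = 0.573), and HSPA1B had normalized counts of 468 and 454 (mock control) against 504, 455 and 416 (CFIm25-m) (log2 fold change -0.01, SE 0.12, adjusted p = 0.974). Their sum was 1106 and 1138 in mock control and 1192, 1009 and 946 in CFIm25-m. The clones lay on either side of the mock controls in both genes and in the sum.

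Of the HSP110 genes, which recharge HSP70 with ATP, HSPA4 was lower in every clone and HSPA4L higher, and neither passed. HSPA4 had normalized counts of 11792 and 11567 (mock control) against 10639, 10766 and 10090.0 (CFIm25-m) (log2 fold change -0.15, SE 0.09, adjusted p = 0.471, limma-trend). HSPA4L had normalized counts of 164 and 195 (mock control) against 242, 239 and 215 (CFIm25-m) (log2 fold change 0.37, SE 0.15, adjusted p = 0.289), and its means were 179 ± 22.1 (SD, n = 2) for mock control against 232 ± 14.3 (SD, n = 3) for CFIm25-m. HSPH1, the stress-inducible HSP110, had normalized counts of 2878 and 2662 (mock control) against 2894, 2468 and 2582 (CFIm25-m), with a log2 fold change of -0.07 (SE 0.10, adjusted p = 0.789) and overlapping groups. Per kb, HSPH1 had normalized counts of 330.1 (mock control) and 316 (CFIm25-m), beside 2129 for HSPA4 over all samples.

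Among 7 small heat shock protein genes, 6 were tested and none passed. HSPB1 (HSP27), which coats unfolded proteins and is the most abundant of them per kb, had normalized counts of 2263 and 2332 (mock control) against 2039, 2239.9 and 1627 (CFIm25-m) (log2 fold change -0.24, SE 0.13, adjusted p = 0.427, limma-trend), lower in all clones, with CFIm25-m 3 the lowest. The other 5 tested members, HSPB6, HSPB7, HSPB8, HSPB9 and HSPB11, had log2 fold changes between -0.30 and 0.60, and their means over both groups were at most 436 normalized counts.

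Of the type I DNAJ genes, which carry the J domain and a zinc finger, DNAJA1, the main cytosolic partner of HSPA8, had normalized counts of 4231 and 3997 (mock control) against 4177, 3306 and 3101 (CFIm25-m) (log2 fold change -0.23, SE 0.13, adjusted p = 0.421, limma-trend). CFIm25-m 1 lay between the mock controls, and CFIm25-m 2 and 3 lay below both. DNAJA4 (chr15:78264086-78282196, plus strand) had the widest range between clones of the tested members, with normalized counts of 228 and 264 (mock control) against 17.0, 172 and 437 (CFIm25-m). CFIm25-m 1 was at 17 reads and CFIm25-m 3 above both mock controls, a factor of 25.6 between clones, and the log2 fold change of -1.15 (SE 0.99, adjusted p = 0.613) did not pass. It was -0.21 with edgeR and -0.22 with DESeq2. Of 12330 tested genes with a mean of at least 100, DNAJA4 and 2 others had a range between the CFIm25-m clones as large or larger. Without CFIm25-m 1 the direction turned, to 0.16 (limma-trend, adjusted p = 0.870), and over the alternatives the log2 fold change ranged from -2.14 to 0.16. Of 15 alternatives DNAJA4 passed only with the block on the replicate number, which leaves CFIm25-m 3, its highest clone, out of the comparison. The spans of DNAJA4 and WDR61, on the opposite strand, overlap by 4362 bases, and WDR61 had a log2 fold change of 0.06.

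Among the type II DNAJ genes, DNAJB6 (chr7:157335381-157417439, plus strand), known for keeping polyglutamine proteins from aggregating, came closest to the threshold. It had normalized counts of 8097 and 8007 (mock control) against 6043, 5802 and 6338 (CFIm25-m), with means of 8052 ± 63.6 (SD, n = 2) for mock control against 6061 ± 268 (SD, n = 3) for CFIm25-m. All clones were below the mock controls by more than the spread within either group, and the log2 fold change was -0.41 (SE 0.09, 95% interval -0.61 to -0.21, limma-trend, adjusted p = 0.0556). It passed with DESeq2 (adjusted p = 0.00462) and without CFIm25-m 3 (limma-trend, adjusted p = 0.00149). In all it passed in 3 of 15 alternatives, with log2 fold changes over them between -0.44 and -0.34. DNAJB1 (HSP40), the inducible partner of HSP70 and an HSF1 target, had normalized counts of 2061 and 2209 (mock control) against 1917, 1735 and 1466 (CFIm25-m) (log2 fold change -0.33, SE 0.12, adjusted p = 0.229), lower in all clones and lowest in CFIm25-m 3. Its span overlaps that of TECR on the opposite strand, which had 2005 normalized counts and a log2 fold change of -0.06. The other 3 tested cytosolic type II genes had log2 fold changes between -0.12 and 0.02.

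The type III DNAJ genes, which share only the J domain, varied in role and in values. Of the 17 not assigned to an organelle in the grouping used here, 16 were tested, 9 were negative and 0 passed. Their log2 fold changes lay between -0.29 and 0.90. DNAJC8, a protein of the splicing machinery and the most abundant of them per kb, had normalized counts of 3239 and 3190.5 (mock control) against 2977, 2727 and 2217 (CFIm25-m) (log2 fold change -0.29, SE 0.12, adjusted p = 0.297, limma-trend), lower in all clones and lowest in CFIm25-m 3. The value of 0.90 belonged to a gene with a mean of 11.1 normalized counts, DNAJC12, which was named after its values were seen. Of the 5 members higher in all clones, HSPA12B, HSPA4L and DNAJC4 had differences above 0.3, and DNAJC21 and HSPA12A, named likewise, had 0.06 and 0.08.

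Of the 11 members assigned to the endoplasmic reticulum, 5 were lower in all clones, at small differences, and none passed. The share was 19.8% of all tested genes and 23% of tested protein-coding genes. HSPA5 (BiP), the HSP70 of this compartment which holds the sensors of the unfolded protein response inactive, had normalized counts of 13764 and 13574 (mock control) against 11831, 11171 and 12275 (CFIm25-m) (log2 fold change -0.22, SE 0.10, adjusted p = 0.326, limma-trend). HSP90B1 (GRP94), its HSP90, had normalized counts of 16737 and 16416 (mock control) against 15594, 14269.6 and 16158 (CFIm25-m) (log2 fold change -0.11, SE 0.10, adjusted p = 0.636). HSPA5 passed without CFIm25-m 3 (-0.25, limma-trend, adjusted p = 0.0227). It passed in 2 of 15 alternatives, with log2 fold changes over them between -0.25 and -0.15. The co-chaperones DNAJC3, DNAJB9 and DNAJB11, which deliver clients to HSPA5, had log2 fold changes of -0.15, -0.21 and 0.00, with adjusted p of 0.546, 0.659 and 0.999 in the same limma-trend fit. For DNAJB11, which had normalized counts of 883 and 889 (mock control) against 925, 854 and 879 (CFIm25-m), the 95% interval of the difference was -0.22 to 0.22. DNAJC25, a J-domain membrane protein, had normalized counts of 209.8 and 236 (mock control) against 283, 219 and 291 (CFIm25-m), with a log2 fold change of 0.23 (SE 0.17, adjusted p = 0.534).

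The promoters of HSPA5 and HSP90B1 hold the element of the unfolded protein response, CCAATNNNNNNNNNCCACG or its reverse, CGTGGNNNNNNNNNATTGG, which occurred in 0.0769% of all windows and in no other member with a window. They are shown because these were the organelle's most abundant members per kb. Capitals mark the matching letters.
HSPA5 (chr9:125241386-125241414, minus strand): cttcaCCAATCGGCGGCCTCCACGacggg
HSP90B1 (chr12:103930211-103930239, plus strand): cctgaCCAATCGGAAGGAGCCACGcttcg
HSP90B1 (chr12:103930316-103930344, plus strand): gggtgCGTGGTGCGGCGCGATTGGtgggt
The 16 tested genes with this element had a median log2 fold change of -0.10, beside -0.22 for HSPA5 and -0.11 for HSP90B1.

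None of the mitochondrial members passed the test, and HSPD1 differed least. HSPD1 (HSP60), the chaperonin, had normalized counts of 25058 and 24619.5 (mock control) against 25127, 27376 and 22690.5 (CFIm25-m), with a log2 fold change of 0.01 and a 95% interval of -0.25 to 0.27. HSPE1 (HSP10), its lid, had normalized counts of 1884 and 1595 (mock control) against 1725, 1851 and 1765 (CFIm25-m), with a log2 fold change of 0.04 and a 95% interval of -0.19 to 0.26. Both genes lie on opposite strands of chromosome 2, and the whole HSPE1 span, 3464 bases, lies within that of HSPD1. How reads were divided between them is uncertain, since the strand setting of the counting is not given. With that limit, HSPE1 had 880.1 (mock control) and 901 (CFIm25-m) per kb, beside 5851 (mock control) and 5905 (CFIm25-m) for HSPD1. HSPA9 (mortalin), the import motor HSP70 of the matrix, had normalized counts of 12674 and 12764 (mock control) against 11584, 10843 and 10256 (CFIm25-m) (log2 fold change -0.23, SE 0.10, adjusted p = 0.32, limma-trend), lower in all clones. Its co-chaperone DNAJA3 had normalized counts of 1730.0 and 1680.2 (mock control) against 1537, 1689.8 and 1479 (CFIm25-m) (log2 fold change -0.12, SE 0.10, adjusted p = 0.581). DNAJC4, a J-domain protein of uncertain role, had normalized counts of 225 and 257 (mock control) against 286, 326 and 303 (CFIm25-m) (log2 fold change 0.34, SE 0.14, adjusted p = 0.285), higher in all clones. Of the 10 tested mitochondrial members, 5 were negative.

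No listed partner of these chaperones passed the test either. Lists of HSP90 and HSP70 co-chaperones, nucleotide exchange factors, the CCT chaperonin with prefoldin, endoplasmic reticulum stress and folding genes, mitochondrial proteases and folding factors, and other small heat shock proteins and heat shock factors held 82 genes, of which 78 were tested. 0 passed the test in limma-trend and 0 in edgeR, 2 passed in DESeq2, and 3 passed in limma-trend without CFIm25-m 3. At an unadjusted p below 0.05 there were 12, beside 15.1% of all tested genes. The log2 fold change was negative in 60 of the 78, beside 51.8% of all tested genes and 56.1% of tested protein-coding genes. The median was -0.09. By list, the log2 fold change was negative in 14 of 16 co-chaperones, 7 of 10 exchange factors and 12 of 14 CCT and prefoldin genes. It was also negative in 16 of 23 endoplasmic reticulum genes, 9 of 11 mitochondrial genes and 2 of 4 in the last list.

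The companion genes nearest to the threshold, named after their values were seen, were CALR and CRYAB. CALR, the lectin chaperone calreticulin, had normalized counts of 19259 and 19349 (mock control) against 15220.2, 13674 and 13731 (CFIm25-m) (log2 fold change -0.44, SE 0.10, adjusted p = 0.0661, limma-trend). CRYAB, a small heat shock protein by fold, had normalized counts of 40.3 and 50.2 (mock control) against 14.0, 20.7 and 10.6 (CFIm25-m), with a log2 fold change of -1.56 (SE 0.37, adjusted p = 0.0705). Every clone was below both mock controls in both genes. Of the 23 endoplasmic reticulum stress and folding genes, 4 (CHAC1, ASNS, TRIB3 and EDEM1) were higher in all clones and 5 lower, and none passed. The shares were 17% and 19.8% of all tested genes, and 15.6% and 23% of tested protein-coding genes. CHAC1 and ASNS, targets of ATF4 in the stress response, had log2 fold changes of 0.62 (SE 0.21, adjusted p = 0.193) and 0.52 (SE 0.21, adjusted p = 0.284) by limma-trend. Among other genes of that response, TRIB3 and ATF3 had log2 fold changes of 0.41 and 0.34 (limma-trend, adjusted p = 0.322 and 0.441). DDIT3, SESN2 and PPP1R15A had -0.28, -0.06 and -0.05. ATF4 itself had normalized counts of 6821 and 6821 (mock control) against 6782, 8604 and 6109.8 (CFIm25-m) (log2 fold change 0.06, SE 0.14, adjusted p = 0.879).

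Some members could not be measured cleanly. For 21 members, 16 of them tested, a gene on the opposite strand overlaps the gene span and had at least 10% of the member's mean. The overlap can be short, as for HSF1 with DGAT1, whose spans share 139 bases. The strand setting of the counting is not given in the sources used here, so reads from the shared bases of such pairs cannot be told apart. Of 45 listed pseudogenes with HSP or DNAJ names, 9 were tested, and all 45 together summed to 680 normalized counts in mock control and 670.1 in CFIm25-m.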

How the data were processed

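Poly(A+) RNA-seq of 2 mock control and 3 CFIm25-m samples was used, grouped by the labels. The control columns of the table are headed with the name of the parent line and were taken as the mock control samples. The authors deposited normalized counts, a signal made by dividing the read count of each gene by a size factor of the sample, and their processing notes name hg38, HISAT2, featureCounts of Subread and DESeq2, with no versions and no strand setting. The table also holds group means and the log2 fold changes and p-values of the authors' own DESeq2 comparison, which were deposited beside the counts and not used. Each column held whole multiples of 1 step, so whole reads were recovered for 100% of values (tolerance 0.1), and these gave the totals and the count tests. Depth varied little between samples, and the number of samples limits the precision.

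A gene entered the tests if 2 or more samples reached 10 normalized counts. The test was limma 3.58.1 under R 4.3.3 (eBayes with trend) on log2(normalized count + 1), which understates the change of low genes. Benjamini-Hochberg adjustment ran over all 19232 tested genes, with a threshold of 0.05, two-sided. The alternatives were other scalings (TMM, total reads), pseudocounts of 0.1 and 5, no filter, a mean of at least 50, limma without a trend, edgeR 4.0.16 or DESeq2 1.42.0 applied to recovered reads, the replicate number as a block, and leaving out each sample. The tests were also run on data simulated with the spread of these samples, which checks the code and not how far clones differ.

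The members and companion lists were chosen with earlier results of these data known. Named members were those past the threshold, the 5 largest increases and 5 largest decreases among tested members with a mean of at least 100, fixed regulators and compartment markers, and the most abundant member per kb in each role. Roles were assigned from textbook knowledge, and HSPB11, a ciliary transport protein, was kept with the small heat shock proteins by its symbol. Promoter windows were matched by symbol to RefSeq (GRCh38.p14).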

Additional observations from a re-analysis of the deposited data

How the results depend on the processing

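The design of 2 against 3 samples limits these results more than the depth does. Members called lower numbered 0 in limma-trend, 1 in DESeq2 and between 0 and 4 when samples were left out one at a time, and members called higher numbered 1, with 0 in limma without a trend and between 0 and 2 with samples left out. Companion genes called numbered 0, with 2 in DESeq2 and between 0 and 3 with samples left out. Of all tested genes 361 were called, with 46 in limma without a trend, 629 in DESeq2 and between 66 and 1044 with samples left out, the highest without CFIm25-m 3. Members lower in all clones numbered 23 and those higher 5 in the main fit, and 14 and 10 under scaling by total reads. With samples left out, those lower numbered between 24 and 31 and those higher between 8 and 12. Groups of fewer samples overlap less often, and the shares of all genes were not computed with samples left out.

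The replicate numbers of the labels mark no stated pairing, and the deviations of samples with the same number correlated at 0.00717 and 0.018. With the replicate block, only 2 numbers are shared, so CFIm25-m 3 drops out of the comparison by construction: 9 members were lower, 2 were higher, 9 companion genes and 2107 of all tested genes were called, and HSF2 turned to 0.0048, DNAJB11 to 0.0052 and HSPA1B to 0.055.

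Of 465 values of single members over the alternatives, 422 kept their direction and side of the threshold, 5 lost the threshold, 16 gained it and 22 turned. Most that turned were near 0. DNAJB11 gave 0.014 with TMM, 0.069 with total reads, 0.020 with edgeR and 0.011 with DESeq2, and HSPA1B gave 0.0020, 0.056, 0.010 and 0.0013 in the same order, while HSPH1 gave 0.0016 with total reads. With samples left out, DNAJB11 ranged from -0.032 to 0.026, HSPA1B from -0.084 to 0.055, HSPD1 from -0.057 to 0.079, HSPE1 from -0.083 to 0.16, HSF2 from -0.23 to 0.0048 and DNAJA4 from -2.14 to 0.16. For those values whose change is not given by fewer samples, the cause was not tested.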
